A study of Mus musculus with 6 samples.

Results

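The 6 genes described here encode enzymes of cholesterol synthesis, and 1 relative of such an enzyme, in mouse testis. They are Idi1, Fdft1, Sqle, Lss, Cyp51 and Ebpl, taken by name in the order of the pathway, and each had 1 probe on the array, so that 6 of the 16390 named genes are covered. RNA was measured in 3 groups of 2 arrays, all from testes of C57/BL6 mice with no genetic change or treatment named. The MVH group is RNA brought down from testis lysate by an antibody against MVH (also called DDX4), a germ cell helicase of the DEAD-box family. The IgG group is RNA brought down by normal rabbit IgG, the control for what sticks to antibody and beads. The third group, WCE, is total RNA taken with no antibody and is called total RNA here. The labels give neither the age of the mice nor whether arrays 1 and 2 stand for different animals, and the p-values cover only the spread between these arrays, which may be technical.

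Cholesterol is built in a long chain of reactions. Mevalonate is turned into isoprenoid units, these are joined into squalene, squalene is oxidised and folded into lanosterol, and lanosterol is trimmed step by step to cholesterol. The genes of the chain are switched on together by the SREBP transcription factors when cells run short of sterols. In the testis, Leydig cells turn cholesterol into androgens, while germ cells have their own sterol chemistry: haploid spermatids carry much Cyp51 mRNA, and sterol intermediates formed after the Cyp51 step build up in the testis.

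The values are probe intensities, scaled so that each array has a median of 30. Each array listed 22090 to 22965 of 23473 probes, and the deposited median was 30 on 5 arrays and 20.8 on the array of IgG precipitate 2. The log2 values of both arrays of a group differed with an SD of 0.47 for MVH, 0.60 for IgG and 0.45 for total RNA over 21241 probes listed on every array. Germ cell RNA was present on every array. The sum of 9 round spermatid genes lay between 75500 and 137000, and that of 7 elongating spermatid genes between 211000 and 289000. A few bright genes carry these sums, such as Ldhc in the first and Prm1, Prm2 and Tnp1 in the second, while others such as Crem were dim. On the total RNA arrays Prm2 and Tnp1 had the same deposited value, 74564.4 on array 1 and 77409.9 on array 2. These were the highest values of those arrays, so both probes may be at the ceiling. Ddx4, the gene of MVH itself, differed between the MVH and IgG precipitates by 0.05 ± 0.30 on the log2 scale (SE, 2 arrays per group, adjusted p = 0.944 with limma). Because of amplification and centring, a difference is one relative to the other RNAs of an array and says nothing of how much RNA was recovered. In total RNA of bulk tissue, fewer cells of a type and less RNA per cell cannot be told apart. The precipitates hold RNA brought down from lysate and not cells.

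Between the precipitates, the question is which RNAs the MVH antibody brings down beyond what sticks to IgG. Idi1 and Fdft1 were higher in the MVH precipitate by more than 2.4-fold, and Ebpl was lower by more than 5.6-fold. Cyp51 stood as far above IgG as Fdft1 did, but its IgG arrays lay further apart and it did not pass the threshold. Sqle and Lss had smaller differences in the same direction, which did not pass.

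Idi1 encodes isopentenyl diphosphate isomerase, which converts the first isoprenoid unit into the form that starts chain growth. On the scaled axis its levels were 2710 and 3080 with MVH, 1590 and 1860 in total RNA, and 1130 and 1030 with IgG. The 3 groups did not overlap, with MVH highest and IgG lowest. Idi1 was 2.66-fold higher with MVH than with IgG (log2 1.41 ± 0.27, SE, n = 2 arrays each, limma adjusted p = 0.0234).

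Fdft1 encodes squalene synthase, the first enzyme that commits isoprenoids to sterols. Its intensities were 2900 and 2930 with MVH, 2020 and 2360 in total RNA, and 1000 and 1440 with IgG. Again the groups did not overlap, in the same order, and the MVH arrays were almost equal. Fdft1 was 2.42-fold higher with MVH than with IgG (log2 1.28 ± 0.29, SE, n = 2 arrays each, limma adjusted p = 0.0353). Without IgG precipitate 1, the lower of the IgG arrays, the difference was 1.01 and no longer passed (adjusted p = 0.101).

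Sqle encodes squalene epoxidase, which oxidises squalene and is a slow step of the pathway. Its intensities were 1540 and 1510 with MVH, 1090 and 1490 in total RNA, and 859 and 1100 with IgG. Both MVH arrays lay above both IgG arrays, while total RNA reached from the level of one precipitate to that of the other. The difference between the precipitates was 0.65 ± 0.29 on the log2 scale (limma adjusted p = 0.205, 95% interval -0.01 to 1.31).

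Lss encodes lanosterol synthase, which folds oxidised squalene into the ring system of sterols. Its intensities were 704 and 636 with MVH, 670 and 643 in total RNA, and 473 and 510 with IgG. MVH and total RNA overlapped, and both IgG arrays lay below them. The difference between the precipitates was 0.45 ± 0.26 on the log2 scale (limma adjusted p = 0.327, 95% interval -0.15 to 1.04).

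Cyp51 encodes lanosterol demethylase, the cytochrome P450 that takes the first methyl group off lanosterol. Its intensities were 990 and 1220 with MVH, 1030 and 937 in total RNA, and 326 and 637 with IgG. MVH and total RNA overlapped, and the IgG arrays lay below both but differed between themselves by 0.97 on the log2 scale. Cyp51 was 2.41-fold higher with MVH than with IgG, short of the threshold (log2 1.27 ± 0.35, SE, n = 2 arrays each, limma adjusted p = 0.0621, 95% interval 0.47 to 2.07). It passed in 8 of 16 alternative settings, among them the fit with the replicate number as a block (adjusted p = 0.0462). Over all 16 the difference lay between 0.78 and 1.75, the lowest without IgG precipitate 1 (adjusted p = 0.185) and the highest without IgG precipitate 2 (adjusted p = 0.0346).

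Ebpl encodes a membrane protein related to Ebp, the sterol isomerase of the late pathway, and is not known to have that enzyme's activity. Its intensities were 50.6 and 66.5 with MVH, 127 and 162 in total RNA, and 446 and 244 with IgG. The 3 groups did not overlap, in the reverse order of Idi1 and Fdft1, with IgG highest and MVH lowest. Ebpl was 5.69-fold lower with MVH than with IgG (log2 -2.51 ± 0.35, SE, n = 2 arrays each, limma adjusted p = 0.0166). Its IgG arrays lay 0.87 apart on the log2 scale, and the difference was -2.07 without IgG precipitate 1 (adjusted p = 0.0273) and -2.94 without IgG precipitate 2 (adjusted p = 0.033). Only 0.0603% of the probes tested had a lower value of this difference, but Ebpl was already known as one of the largest falls when the 6 genes were chosen, so its rank is a description.

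**Figure D1:**
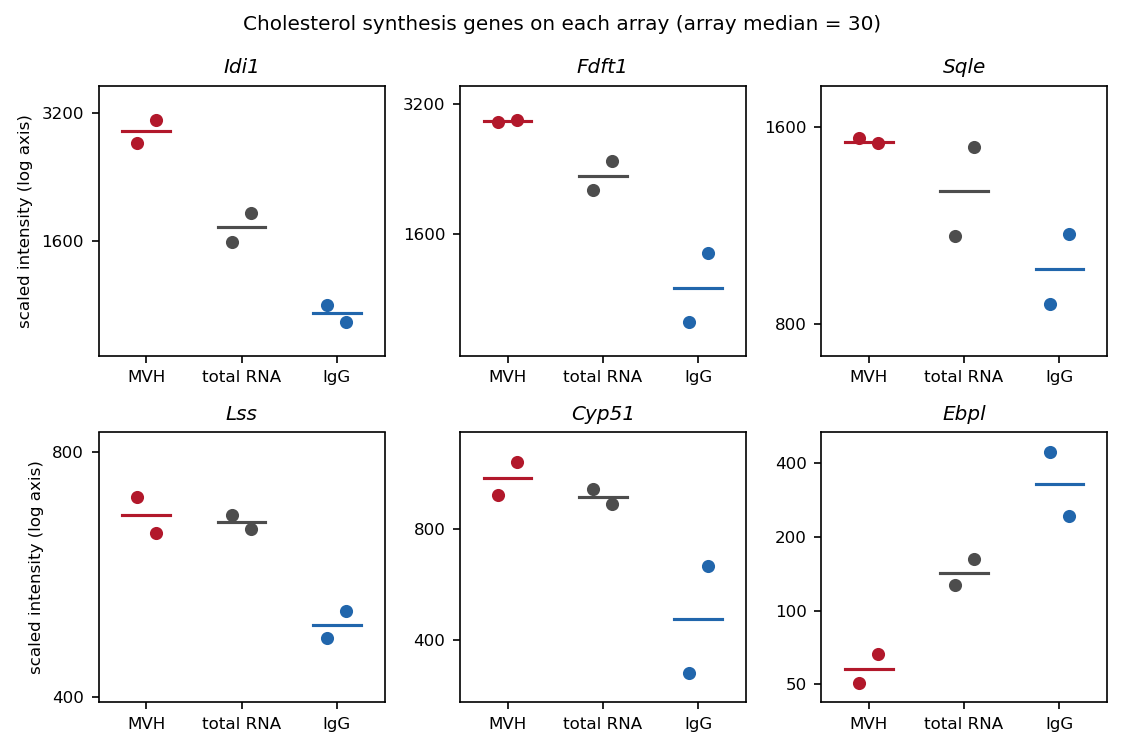
Scaled intensity (log axis, array median 30) of the 6 genes on each of the 6 arrays. Points are arrays, lines are geometric means of 2 arrays. Idi1, Fdft1, Lss and Cyp51 are lowest on the IgG arrays, Sqle overlaps there with total RNA, and Ebpl is highest there, at 446 and 244 against 50.6 and 66.5 with MVH.

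In all, 3 of the 6 genes passed in this comparison, 2 higher and 1 lower, where 7.97% of the 21574 probes tested passed. By direction, 3.82% of probes passed as higher and 4.15% as lower. The arrays of both precipitates did not overlap for any of the 6 genes, with 5 higher and 1 lower, while 29.9% of all probes were higher and 23.8% lower by that rule. The median of the 6 differences was 0.96, against 0.07 for all probes. As the 6 genes were chosen with earlier results of these data known, such counts and medians only describe them, here and in the comparisons below. The 3 calls also rest on few arrays. None of the 3 passed when either MVH array or either total RNA array was left out or when only the 4 precipitate arrays were fitted, with adjusted p-values of 0.0533 to 0.157. The sizes were 1.32 to 1.51 for Idi1, 1.27 to 1.29 for Fdft1 and -2.71 to -2.31 for Ebpl in those fits.

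The sequences before the gene starts are shown because the SREBP factors act there. The array measured RNA and not these sites, and a link between them and the differences between groups was not tested. RefSeq windows were found for 4 of the 6 genes (Idi1, Lss, Cyp51 and Ebpl), and for Idi1, Cyp51 and Ebpl the 250 bases before the start are given 5′ to 3′ on the gene's strand, in assembly GRCm38.p6. Idi1 lies at chr13:8885356-8885605 on the plus strand, Cyp51 at chr5:4104698-4104947 on the minus strand and Ebpl at chr14:61360446-61360695 on the minus strand. Capitals mark matches, on either strand, to ATCACCNCA (a form of the sterol regulatory element), CCAAT (the box bound by NF-Y), TGACG (the CRE half-site) and GGGCGG (the GC box), which do not overlap here.
Idi1: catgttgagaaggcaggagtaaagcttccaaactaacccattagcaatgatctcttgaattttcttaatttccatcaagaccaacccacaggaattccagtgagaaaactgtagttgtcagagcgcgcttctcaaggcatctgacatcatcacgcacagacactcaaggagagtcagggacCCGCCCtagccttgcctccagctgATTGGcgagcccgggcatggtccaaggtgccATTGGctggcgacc
Cyp51: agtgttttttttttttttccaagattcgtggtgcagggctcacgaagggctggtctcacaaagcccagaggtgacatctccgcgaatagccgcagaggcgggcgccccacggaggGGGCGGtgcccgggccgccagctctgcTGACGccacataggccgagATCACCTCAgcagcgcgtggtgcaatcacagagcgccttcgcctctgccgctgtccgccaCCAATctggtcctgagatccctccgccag
Ebpl: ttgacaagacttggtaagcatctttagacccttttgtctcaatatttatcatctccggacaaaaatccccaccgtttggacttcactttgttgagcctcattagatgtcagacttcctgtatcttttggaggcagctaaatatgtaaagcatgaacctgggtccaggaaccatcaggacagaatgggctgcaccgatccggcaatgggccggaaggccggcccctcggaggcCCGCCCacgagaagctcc

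Cyp51 held 1 match to each of these. Idi1 held 2 CCAAT boxes and 1 GC box, Lss 1 CCAAT box and 2 GC boxes, and Ebpl 1 GC box. Of 32851 RefSeq windows of the same length, 0.645% held the sterol regulatory element, 33.8% a CCAAT box, 17.8% a CRE half-site and 32.7% a GC box. The letters searched were chosen with these windows in view, and a match is a description of the sequence only.

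Next, MVH was compared with total RNA, to see whether an RNA was enriched over its abundance. None of the 6 genes passed with limma, and 2 had an unadjusted p under 0.05, where 0.0138% of 21793 probes passed and 8.93% had such a p. Idi1 was the furthest above total RNA, by 0.75 ± 0.27 on the log2 scale (adjusted p = 0.444), and Ebpl the furthest below, by -1.30 ± 0.35 (adjusted p = 0.301). Fdft1 differed by 0.42 ± 0.29 (adjusted p = 0.792) and Sqle by 0.26 ± 0.29 (adjusted p = 0.919). For Cyp51 the difference was 0.16 (95% interval -0.64 to 0.96) and for Lss 0.03 (95% interval -0.56 to 0.62, with a sign that turned when 1 array was left out). By array, 3 of the genes (Idi1, Fdft1 and Sqle) were higher without overlap and 1 (Ebpl) lower, against 18.7% and 21.6% of all probes.

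The same was done for IgG and total RNA. None of the 6 genes passed with limma, and 4 had an unadjusted p under 0.05, where 0.00934% of 21413 probes passed and 18.2% had such a p. The median of the 6 differences was -0.54, against -0.10 for all probes. Cyp51 differed by -1.11 ± 0.35 (adjusted p = 0.152), Fdft1 by -0.86 ± 0.29 (adjusted p = 0.17) and Idi1 by -0.67 ± 0.27 (adjusted p = 0.233). Lss differed by -0.42 ± 0.26 and Sqle by -0.39 ± 0.29. By array, 4 of the genes were lower without overlap, Sqle being the one that overlapped, and 1 (Ebpl) was higher, against 29.6% and 20% of all probes. Ebpl stood 2.31-fold above total RNA (log2 1.21 ± 0.35, adjusted p = 0.129), and passed without the dimmest 25% of probes (adjusted p = 0.0478) and with a variance trend (adjusted p = 0.0404).

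**Figure D2:**
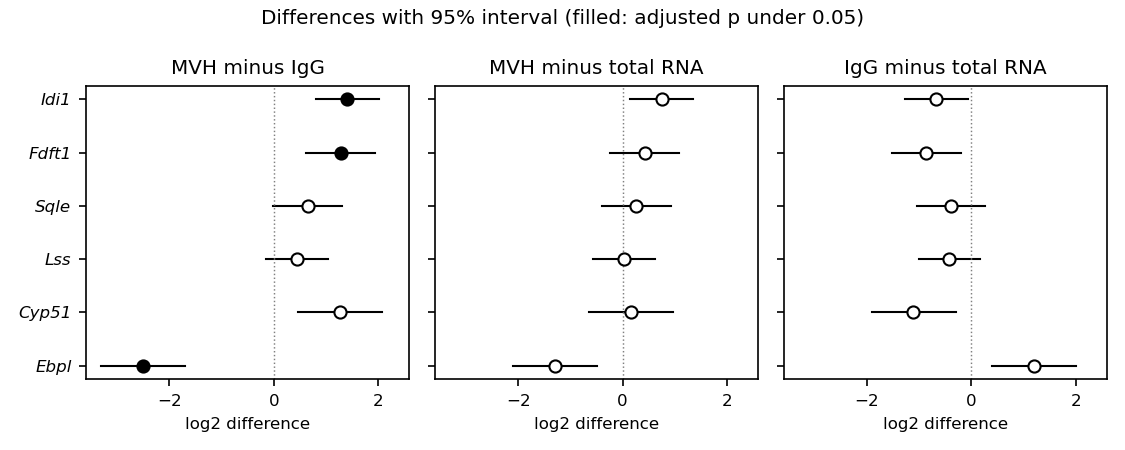
Log2 differences of the 6 genes in the 3 comparisons, with 95% intervals from limma and filled points where the adjusted p was under 0.05. Filled points occur only between the precipitates, for Idi1 (1.41), Fdft1 (1.28) and Ebpl (-2.51).

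The 3 comparisons share arrays, so their values are set side by side and not counted as separate support. Of the distance between the precipitates, Idi1 had nearly even shares, at 0.75 for MVH and -0.67 for IgG, each against total RNA. Fdft1 was at 0.42 and -0.86 and Sqle at 0.26 and -0.39, with the larger share on the IgG side. Cyp51 was at 0.16 and -1.11 and Lss at 0.03 and -0.42, so that most of their distance lay on the IgG side. Ebpl was at -1.30 and 1.21, again nearly even. Each of these values had an SE of 0.26 to 0.35, and the split into shares was not tested.

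The rest of the sterol pathway was measured by 13 of 18 other genes of mevalonate formation and of the steps after lanosterol, and 12 could be tested. The other 5 were not analysed here. Pmvk, the gene of a kinase of the mevalonate steps, was blank on 2 arrays and at most 4.47 on the others. None of the 12 passed between the precipitates with limma, and 6 had an unadjusted p under 0.05, where 25.5% of all probes had one. Their median difference was -0.37, with 5 values above and 7 below 0, against 0.96 for the 6 genes. The 6 genes and this list were chosen with earlier results known, so the contrast is a description. The genes also differed in brightness. Apart from Ebpl, the 6 genes read 326 to 3080. Most of the 12 were much dimmer, such as Lbr at 12 to 25.7 and Mvd at 31.8 to 58.9. Erg28 and Ebp were the brightest of them, at 100 to 198 and 141 to 358. The part of brightness in the contrast was not tested.

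The genes of the late steps pointed both ways. Sc5d, the sterol desaturase gene, had the highest value among them, at 0.89 ± 0.29 (limma adjusted p = 0.0962). Its intensities were 27.9 and 31.4 with MVH, 26.4 and 36.6 in total RNA, and 17.7 and 14.4 with IgG, so the IgG arrays were low and the rest overlapped. Erg28, which encodes a scaffold that gathers demethylation enzymes, differed by -0.85 ± 0.27 (adjusted p = 0.0927), and Lbr, a sterol reductase of the nuclear envelope, by -0.80 ± 0.28 (adjusted p = 0.118). The demethylation genes Msmo1, Nsdhl and Hsd17b7, which act after Cyp51, differed by 0.48, 0.10 and -0.75, and Dhcr7, of the last reduction, by 0.45. Hsd17b7 and Dhcr7 were dim, at 7.1 to 23.1 and 6.4 to 11. Tm7sf2, the other sterol reductase, differed by -0.60, and by -1.25 ± 0.31 between MVH and total RNA (adjusted p = 0.267).

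Ebp, the relative of Ebpl with known isomerase activity, had intensities of 141 and 143 with MVH, 213 and 358 in total RNA, and 251 and 260 with IgG. It was low with MVH, while total RNA and IgG overlapped. Ebp differed between the precipitates by -0.85 ± 0.31 (limma adjusted p = 0.13) and between MVH and total RNA by -0.96 ± 0.31 (adjusted p = 0.394), in the direction of Ebpl in both cases. Between IgG and total RNA Ebp differed by -0.11, where Ebpl had 1.21. The difference between these genes was not tested.

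Upstream of Idi1, the mevalonate kinase gene Mvk differed between the precipitates by 0.95 ± 0.34 (limma adjusted p = 0.125) and the decarboxylase gene Mvd by -0.69 ± 0.27 (adjusted p = 0.149). Idi2, the second isomerase gene, differed by -0.15 ± 0.29. Its brighter probe lay between 11.3 and 17.7 on all arrays. The isomerase Idi1 was thus the only gene up to isoprenoid formation that passed among the 4 tested.

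**Figure D3:**
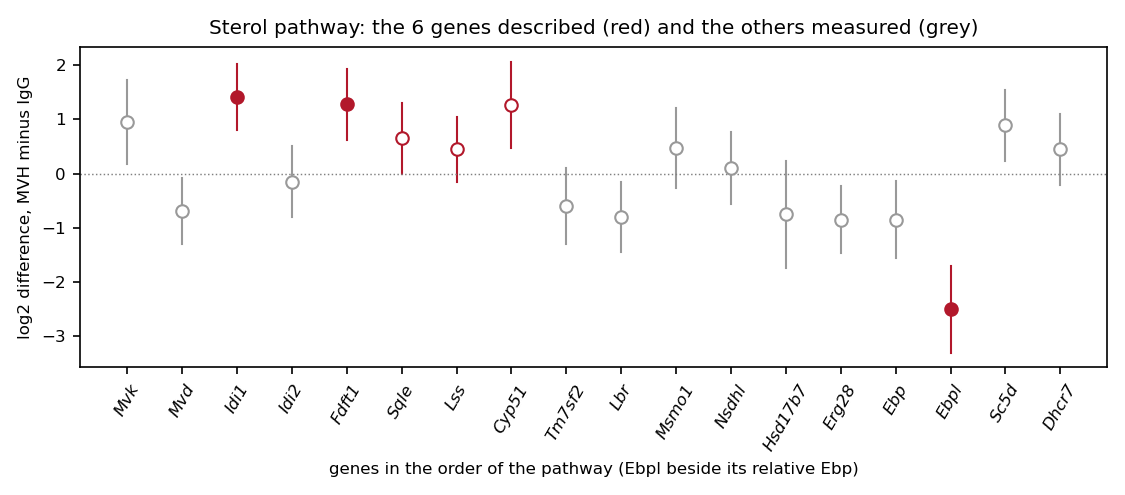
Log2 difference between the MVH and IgG precipitates for 18 sterol pathway genes in pathway order, with 95% intervals from limma. Red marks the 6 genes described and grey the 12 others, and filled points had an adjusted p under 0.05. Values from Idi1 to Cyp51 lie above 0 apart from Idi2 (-0.15), and Ebpl lies lowest.

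Genes that control or use the pathway were given by lists, which were also chosen with earlier results of these data known. Between the precipitates, 7.97% of all probes passed with limma and 25.5% had an unadjusted p under 0.05. Of 7 genes of SREBP control, 0 passed between the precipitates with limma (2 at an unadjusted p under 0.05), with a median of 0.06. Srebf2, the main SREBP of cholesterol synthesis, differed by 0.27 ± 0.29, its escort Scap by -0.63 and the protease gene Mbtps1 by -0.92. The retention protein genes Insig1 and Insig2 were at 0.16 and -0.37. Srebf2 was dim, at 7.07 to 11.4. Of 15 genes of cholesterol uptake, storage and transport, 0 passed (3 at an unadjusted p under 0.05), with a median of -0.13. Lipe, the hormone-sensitive lipase gene, had the highest value, 1.13 ± 0.34 (adjusted p = 0.0761), and Star, which carries cholesterol into mitochondria of steroid-making cells, the lowest, -1.01 ± 0.30 (adjusted p = 0.074). Star was dim, at 4.9 to 12.4. Of 7 genes of oxysterol formation and sensing, 0 passed (2 at an unadjusted p under 0.05), with a median of 0.30.

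In the isoprenoid branch, which attaches isoprenoids to proteins and other carriers, 1 of 9 genes passed, and it was lower. Of all probes, 7.97% passed between the precipitates, 4.15% as lower. That was Rabggta, a subunit of the transferase that prenylates Rab proteins, at -1.32 ± 0.27 (limma adjusted p = 0.0283). Its partner Rabggtb differed by -1.12 ± 0.29 (adjusted p = 0.0514), and the farnesyltransferase subunit gene Fntb by -1.22 ± 0.35 (adjusted p = 0.0669). Ggps1, which makes the isoprenoid used by the Rab transferase, differed by 0.10.
Against total RNA, 0 genes of these 4 lists passed in either precipitate with limma. Of 38 or 39 tested, 3 had an unadjusted p under 0.05 with MVH and 7 with IgG, shares close to the 8.93% and 18.2% of all probes.

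Most markers of Leydig cells lay in the same order of groups as Ebpl, with group means lowest with MVH and highest with IgG for 5 of 6. Of 6 measured markers out of 8, 4 were lower with MVH than with IgG by limma and 0 higher, with a median of -1.93. Of all probes, 4.15% passed as lower and 3.82% as higher. All 6 markers had a negative value, but Hsd17b3 was dim, at 3.1 to 6.6, and differed between IgG and total RNA by 0.08. Their summed intensity was 494 to 512 with MVH, 662 to 1130 in total RNA and 1890 to 3000 with IgG, and no marker was blank on any array. Cyp17a1, an enzyme of androgen synthesis, differed by -2.59 (adjusted p = 0.0166), Cyp11a1, which cuts the cholesterol side chain, by -2.17 (0.0289), and the steroid dehydrogenase genes Hsd3b6 and Hsd3b1 by -1.97 (0.0172) and -1.88 (0.019). The part of Leydig cell RNA in the difference of Ebpl was not tested.

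Cyp17a1 was also the gene whose profile over the 6 arrays lay closest to that of Ebpl. Likeness was measured as the root mean square difference of log2 values, each gene set to its own mean, over 14599 genes with a descriptive symbol. It was 0.172 for Cyp17a1, 0.206 for the retinol saturase gene Retsat and 0.230 for S100a6, which encodes a calcium-binding protein and was dim. The intensities of Cyp17a1 were 140 and 177 with MVH, 320 and 561 in total RNA, and 1150 and 788 with IgG. Like Ebpl it was higher on the first IgG array than on the second, and lower on the first MVH array than on the second. Likeness over 6 arrays is given as a description.

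Several markers of round spermatids lay in the opposite order, with group means highest with MVH and lowest with IgG for 5 of 9. Of 9 measured out of 10, 4 were higher with MVH than with IgG by limma and 0 lower, with a median of 0.97. Of all probes, 3.82% passed as higher and 4.15% as lower. The 4 were Pgk2 (2.13), Zpbp (1.14), Tssk1 (1.08) and Tssk2 (1.07). The summed intensity of the list was 105000 to 137000 with MVH, 81300 to 104000 in total RNA and 75500 to 78900 with IgG. The part of spermatid RNA in the differences of Idi1, Fdft1 and Cyp51 was not tested.

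The profiles closest to the other 5 genes were those of other kinds of genes. They were Rfc2, Ttll7 and Tulp2 for Idi1, at 0.0487 to 0.0836, where Ttll7 stands for its dimmer probe and the brighter one differed by 0.84 between the precipitates. They were Samd4, Slfn3 and Cacnb1 for Fdft1, at 0.0582 to 0.0881, of which Slfn3 was dim on every array. For Sqle they were Ulk4, Nsun2 and Otud3, at 0.0426 to 0.0769, and for Lss Amph, Fam204a and Ctbs, at 0.0352 to 0.0463. For Cyp51 they were Cnr1, Cidec and Apobec2, at 0.0825 to 0.122, of which Cnr1 and Apobec2 were dim.

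**Figure D4:**
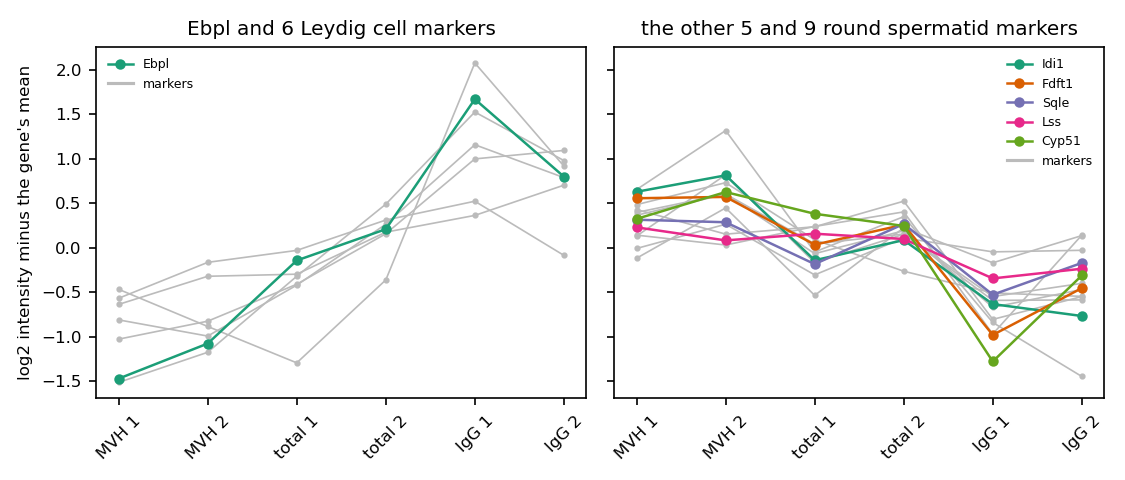
Log2 intensity of each gene minus its own mean on the 6 arrays, with lines joining the values of 1 gene. Left, Ebpl and 6 Leydig cell markers (grey), most of which are high on the IgG arrays. Right, the other 5 genes and 9 round spermatid markers (grey), most of which are low there.

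Some peritubular and vascular markers were lower with MVH than with IgG, but group means lay in the order of Ebpl for only 2 of 8. Of 6 tested, 2 passed as lower, where 4.15% of all probes did. They were the smooth muscle genes Acta2 (-2.42) and Myh11 (-1.51), and Tagln was at -1.32 (limma adjusted p = 0.0966). Cnn1, Vwf and Des were at -0.24, 0.01 and 0.11, and the median was -0.78. Myh11 was higher with MVH than in total RNA, by 0.74, where Ebpl was at -1.30. The summed intensity of the list was 364 to 560 with MVH, 430 to 525 in total RNA and 1480 to 3170 with IgG, and 2 of its 8 genes were blank on some array. The part of this RNA in the difference of Ebpl was not tested. Of 8 spermatocyte markers 1 was higher, Sycp3 (1.79), and 1 lower, Dmc1 (-1.21), against 3.82% and 4.15% of all probes. None of 9 Sertoli cell, 4 macrophage and blood, 5 spermatogonial and 7 elongating spermatid markers passed with limma, with medians of 0.10, 0.45, 0.11 and 0.28. Of the elongating spermatid markers, Prm2 and Tnp1 may be at the ceiling on the total RNA arrays. Whether this holds on the precipitate arrays was not tested.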

How the data were processed

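Testis RNA of 3 groups was measured on 6 arrays of 1 colour, with 1 sample labelled with Cy5 per array, per the labels' protocols. Protocol text on liver tumours, which does not belong to these samples, was passed over. The authors deposited a linear intensity per probe, with blank cells. The scanner, background correction, scaling and build: not given in the sources used here.

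Symbols from the platform annotation (16631 of 23473 probes) were updated through RefSeq synonyms of GRCm38.p6: 12622 were current, 3947 were updated and 62 had no match. Intensities were converted to log2 and centred on each array's median. All 6 arrays were fitted with limma 3.58.1 in R 4.3.3 (lmFit, eBayes), with 3 residual and 5.77 prior degrees of freedom. A contrast was tested where all 4 arrays listed a probe. P-values were adjusted by Benjamini-Hochberg over all probes of a contrast, with a threshold of 0.05. A list counts each gene at its brightest probe. The steps were run on simulated data drawn from the spread that the fit assumes, which checks the code and not the calls made here.

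The 6 genes and all lists were chosen with earlier results of these data known. Named are the 6 genes, Ebp, Ddx4, list genes that passed and some, not all, of the 4 largest differences of a list. Also named are other pathway genes, for completeness, and the 3 closest profiles per gene. The number of arrays limits the precision. Alternatives covered centring, normalization, dim probes, an offset of 4, probes per gene, blank cells, the variance model, the arrays fitted, a block for the replicate number, and leaving out each array.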

Additional observations from a re-analysis of the deposited data

How the results depend on the processing

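Of 288 alternative values of the 6 genes, 260 kept direction and side of the threshold, 16 lost a call, 10 gained one and 2 turned sign. The last were Lss between MVH and total RNA, at -0.04 without MVH precipitate 1 and 0 without total RNA 2, with a range of -0.04 to 0.10 over the fits without 1 array. Most of the 260 had no call in the main fit. All 16 lost calls fell on Idi1, Fdft1 and Ebpl between the precipitates. Of 16 alternatives there, Idi1 and Ebpl passed in 11 and Fdft1 in 10. Between the precipitates 3 genes passed. The number was 0 when only the 4 arrays compared were fitted and 0 to 4 when 1 array was left out. Leaving out either total RNA array gives the same test as the 4 arrays, since a lone array adds nothing to the spread. Without centring, all probes moved up together (median 0.34 in place of 0.07), and Idi1, Fdft1, Cyp51 and Ebpl were at 1.68, 1.54, 1.53 and -2.24. Between IgG and total RNA 1 gene, Ebpl, passed without the dimmest 25% of probes and 1 with a variance trend. Of the other sterol genes 2 passed between the precipitates without the dimmest 25% of probes (Sc5d, 0.89, and Erg28, -0.85), 1 after an offset and 1 under a variance trend (Erg28 in both).

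The replicate numbers of the labels are not said to pair the samples. Deviations of same-numbered arrays correlated at 0.157 (MVH and IgG), 0.156 (MVH and total RNA) and 0.101 (IgG and total RNA). With the replicate number as a block 4 genes passed between the precipitates, Cyp51 added (adjusted p = 0.0462), and 2267 probes in place of 1719. Between IgG and total RNA the replicate block gave 150 probes in place of 2.

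All probes called moved more. Between the precipitates 1719 passed: 823 (702 higher, 121 lower) with no centring, 3116 without the dimmest 25% of probes, 2955 with an offset, 3143 with a variance trend, 0 with only the 4 arrays, and 0 to 1327 leaving out 1 array. For MVH against total RNA 3 passed: 19 with no centring, 8 centred on the 75th percentile, 123 without the dimmest 25% of probes, 92 with an offset, 0 with 1 probe per gene, 30 with probes listed on all 6 arrays, 180 with a variance trend, 6 with only the 4 arrays, and 0 to 10 leaving out 1 array. For IgG against total RNA 2 passed: 5 with no centring, 141 with quantile normalization, 211 centred on the 75th percentile, 1183 without the dimmest 25%, 1087 with an offset, 99 with 1 probe per gene, 469 with probes on all 6 arrays, 1253 with a variance trend, 1 with only the 4 arrays, and 0 to 58 leaving out 1 array.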
